A study of Oryza sativa with 200 samples.

Results

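The pseudo-response regulator (PRR) genes of the rice circadian clock were followed in the leaves of 100 lines over 2 years. The 5 genes were taken by locus from the count tables, and they are OsPRR1 (Os02g0618200), OsPRR59 (Os11g0157600), OsPRR95 (Os09g0532400), OsPRR73 (Os03g0284100) and OsPRR37 (Os07g0695100), 5 of 37849 genes. All 5 were found in both tables, and all 5 passed the filter on low counts. RefSeq lists the names OsPRR1, OsPRR95, OsPRR73 and OsPRR37 on the chromosome that the locus names. The name OsPRR59 is not in that list and stands here as a name given to its locus.

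The lines belong to JAM2, a MAGIC (multi-parent advanced generation inter-cross) population of temperate japonica rice bred from 4 varieties, Toyomeki, Tachiharuka, Iwaidawara and Akidawara. All lines received the same basal chemical fertilizer, with 56 kg of nitrogen per ha, and each line stood in the paddy field as 33 plants in a single unreplicated plot. The 2023 group held 100 lines at generation F6, sampled on 29 June, and the 2022 group held the same 100 lines at generation F5, sampled on 1 July. In both years a fully expanded leaf was cut between 9:00 and 11:00, 6 weeks after transplanting, and gave 1 library. Year, generation, sampling date and count table cannot be told apart. With 1 library per line and year, neither can genotype, plot, leaf, hour of cutting and library preparation.

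PRR proteins are repressors of transcription with a pseudo-receiver domain and a CCT domain. In Arabidopsis they come on in succession through the day and shut down the morning genes LHY and CCA1, and LHY and CCA1 in turn hold down genes of the evening. In rice, OsPRR73 and OsPRR37 peak early in the day, OsPRR95 and OsPRR59 follow, and OsPRR1, the counterpart of the Arabidopsis evening gene TOC1, peaks last. OsLHY (Os08g0157600) is the rice gene of the morning transcription factor. OsPRR37 is also known as a gene of flowering time. The leaves were cut in the morning, before the usual peak of OsPRR1.

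The libraries of 2023 held between 3729294 and 16881699 counts, with the median at 11272411, and those of 2022 between 3254834 and 37774023, with the median at 7768777. Because totals in 2022 were uneven, the 30 lines with the deepest 2022 libraries and the other 70 were also examined apart, as depth sets. Levels are in CPM, the counts of a gene over the library total in units of a fixed size, with TMM scaling to correct the totals for composition. The library of line J2_204 in 2023 had a median correlation with the other libraries of its year of 0.899, against 0.914 for the next lowest and 0.952 for the highest. The library of line J2_378 in 2022 stood at 0.892, against 0.922 for the next lowest and 0.950 for the highest. Results are given for all lines, and those that changed without lines J2_378 and J2_204 are named. The 4 markers of leaf mesophyll (3 RBCS genes and CAB1R) summed to a median of 30041 CPM in 2023 and 23800 CPM in 2022. The 3 markers of other tissues, LSI1 of the root, OsMADS1 of the panicle and PCNA of dividing cells, summed to 16.8 to 55.1 CPM in 2023 and to 15.6 to 53.0 CPM in 2022, with OsMADS1 at 0 in some lines. In whole leaves, fewer cells of a type and less RNA per cell cannot be told apart.

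OsPRR1 divided the population. It ranged from 9.03 CPM in line J2_417 over a median of 49.1 CPM to 94.5 CPM in line J2_319 in 2023. In 2022 it ranged from 11.6 CPM in line J2_248 over a median of 47.2 CPM to 71.1 CPM in line J2_211. The highest line stood 10.5-fold over the lowest in 2023 and 6.15-fold in 2022, a wider span than that of any other member. These values rest on 41 to 1055 counts per library in 2023 and 106 to 2077 counts in 2022. The SD between lines was 0.86 on the log2 scale in 2023 and 0.72 in 2022, against a spread from counting alone of 0.0863 and 0.0806.

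The lines fell into a high and a low set with an empty stretch between them. When the 100 lines were sorted by log2 CPM, the widest gap between neighbours with at least 10 lines on either side took 9.48% of the range in 2023 and 8.93% in 2022. A gene was called two-mode where that gap was at least 8% of the range in both years, which held for 1 of the 5 PRR genes and for 2.28% of the 18404 genes that averaged 1 CPM or more. The high set of 2023 held 75 lines from 29.6 to 94.5 CPM with a median of 54.4 CPM, and its low set held 25 lines from 9.03 to 23.7 CPM with a median of 14.9 CPM. The high set of 2022 held 73 lines from 33.8 to 71.1 CPM with a median of 53.0 CPM, and its low set held 27 lines from 11.6 to 28.8 CPM with a median of 18.1 CPM. The call rests on a limit close to the values: OsPRR1 missed it at a limit of 10%, and by total counts instead of TMM its smaller gap was 6.04%.

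A line kept its side from year to year with few exceptions. In all, 73 lines were high and 25 were low in both years. Line J2_256 was high in 2023 at 39.1 CPM and low in 2022 at 22.8 CPM, and line J2_365 was high in 2023 at 35.4 CPM and low in 2022 at 28.8 CPM. No line went the other way. Since the lines form separate sets, relations of OsPRR1 are given within each set and not over all lines.

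**Figure D1:**
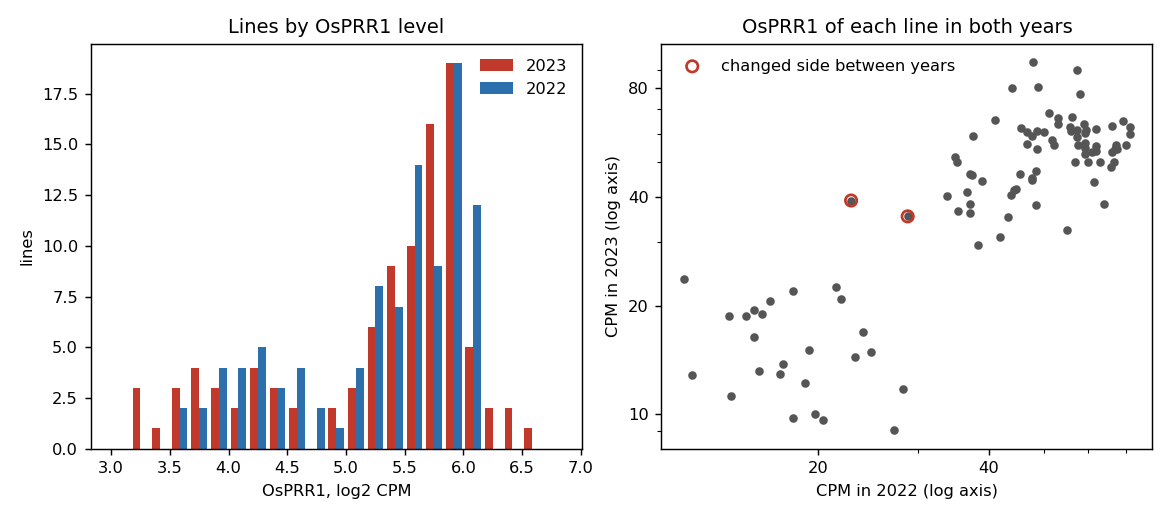
The histogram on the left counts lines by log2 CPM of OsPRR1 in 2023 (red) and 2022 (blue), and the plot on the right sets each line's CPM in 2023 (vertical, log axis) against its CPM in 2022 (horizontal, log axis). The 25 lines low in both years sit apart from the 73 lines high in both years, and the circled points are lines J2_256 and J2_365, which changed side.

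The genes most like OsPRR1 over the lines lay near it on chromosome 2. Ranked by the smaller of the r values of the 2 years, the first was Os02g0618100 (r = 0.836 in 2023 and 0.805 in 2022), whose number in the annotation stands next to that of OsPRR1. Then came Os02g0613200 (r = 0.875 and 0.786) and Os02g0592600 (r = 0.720 and 0.726). The most opposed gene was Os02g0617600 (r = −0.809 in 2023 and −0.793 in 2022), also a close neighbour by number. Of the 20 genes with the strongest likeness or opposition, 13 were on chromosome 2, where 12.1% of all genes compared lie, with locus numbers from 592600 to 622100. These r values over all lines follow the split into sets and carry no p. Inside the sets the r values of these 4 genes were smaller in size, and that of the opposed gene changed sign. Os02g0618100 had r = 0.336 in the high lines and 0.386 in the low lines of 2023, and 0.288 and 0.0928 in those of 2022. Os02g0613200 had 0.225 and 0.581 in the sets of 2023 and 0.168 and 0.331 in those of 2022, and Os02g0592600 had 0.104 and 0.331, then 0.287 and 0.100. Os02g0617600 had 0.193 in the high lines and −0.170 in the low lines of 2023, and 0.0193 and −0.672 in those of 2022. Whether Os02g0618100 and OsPRR1 overlap, and whether strand was used in counting, is not given in the sources used here, so reads of neighbours may not be fully told apart.

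The other 4 PRR genes varied little between lines and formed no separate sets, with widest gaps of 2.36% to 4.97% of the range. OsPRR95 ranged from 448 CPM over a median of 594 CPM to 816 CPM in 2023, and from 286 over 398 to 496 CPM in 2022. In 2023, 96 lines of OsPRR95 lay above all 100 lines of 2022, and 89 lines of 2022 lay below all lines of 2023. Line J2_416 was the lowest for OsPRR95 in both years. OsPRR59 ranged from 39.6 CPM over a median of 55.2 CPM to 87.6 CPM in 2023, and from 26.7 over 43.2 to 65.6 CPM in 2022, so the years overlapped widely.

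For the early PRR genes the years overlapped as well. OsPRR73 ranged from 402.7 CPM over a median of 529 CPM to 662 CPM in 2023, and from 272 over 428 to 541 CPM in 2022. Its lowest library was that of line J2_378 in 2022. OsPRR37 ranged from 120 CPM over a median of 186 CPM to 235.5 CPM in 2023, and from 123 over 161 to 202.6 CPM in 2022. Line J2_310 was the highest for OsPRR37 in both years.

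These spreads join those of line, plot, leaf and library, and counting error is a small part of them. For OsPRR95 the SD between lines was 0.18 on the log2 scale in 2023 and 0.17 in 2022, against 0.0193 and 0.0245 from counting alone. OsPRR37, the least variable in 2022, had an SD of 0.16 in 2023 and 0.13 in 2022, against 0.0347 and 0.0380 from counting. OsLHY varied far more in 2022 than in 2023, with a range of 1024 to 2508 CPM around a median of 1766 CPM in 2023 and of 346.5 to 1749 CPM around a median of 844 CPM in 2022.

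**Figure D2:**
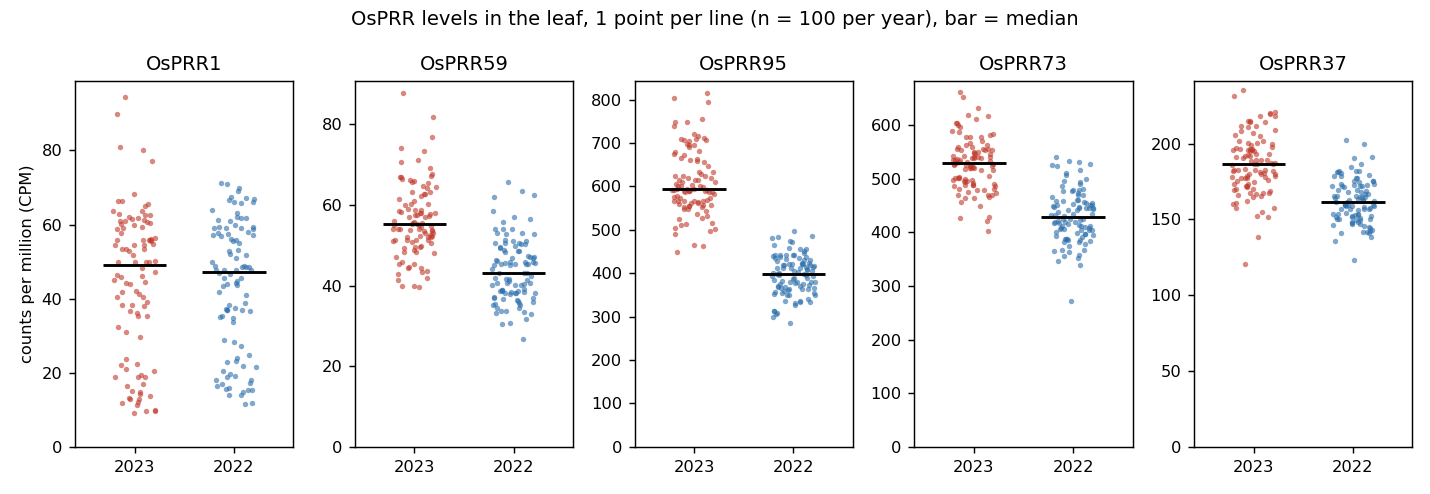
Each panel shows 1 PRR gene, with CPM on the vertical axis from 0, each point a line in 2023 (red, left) or 2022 (blue, right), and a bar at the median of 100 lines. OsPRR95 shows the clearest shift, with medians of 594 CPM in 2023 and 398 CPM in 2022, and OsPRR1 alone shows an empty band between a low and a high set in both years.

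The first comparison asked whether the PRR genes changed with the year, the lines being the same. OsPRR95, OsPRR59, OsPRR73 and OsPRR37 were higher in 2023, and no difference was detected for OsPRR1. All differences are log2 changes, 2023 minus 2022, with their SE, and adjusted p-values come from edgeR's quasi-likelihood test with Benjamini-Hochberg (BH) adjustment over 18674 genes. The count of 4 of 5 genes called higher stands beside 71.2% of all genes called, 34.3% as higher and 36.9% as lower, so a call in itself was common in these data. The median log2 change of the 5 genes was 0.29.

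OsPRR95, a member of the middle of the daily sequence, changed most. It averaged 610 ± 75.8 CPM in 2023 and 396 ± 45.3 CPM in 2022 (SD, n = 100 lines each), which is 0.62 in log2 terms (SE 0.0246, edgeR adjusted p = 1.37e-61), and it was higher in 2023 in 100 of 100 lines. By the size of its change it stood among the upper 7.14% of all genes tested. OsPRR59, its close relative, averaged 56.2 ± 9.08 CPM in 2023 and 43.9 ± 7.89 CPM in 2022, which is 0.36 in log2 terms (SE 0.0343, edgeR adjusted p = 8.56e-20), and was higher in 88 lines.

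The early members moved less. OsPRR73 averaged 528 ± 49.4 CPM in 2023 and 431 ± 49.1 CPM in 2022, a difference of 0.29 (SE 0.0216, edgeR adjusted p = 1.38e-28), with 94 lines higher in 2023. OsPRR37 averaged 187 ± 19.9 CPM in 2023 and 162 ± 14.5 CPM in 2022, a difference of 0.20 (SE 0.0204, edgeR adjusted p = 5.33e-18), with 87 lines higher. OsPRR1 averaged 44.4 ± 20.1 CPM in 2023 and 43.5 ± 17.5 CPM in 2022, and its difference of 0.03 (SE 0.101, edgeR adjusted p = 0.794) did not pass, with 49 lines higher and 51 lower. That test took its high and low sets together. The high set averaged 53.9 CPM in 2023 and 52.5 CPM in 2022, and the low set 15.6 and 19.1 CPM. A year difference within the sets was not tested. Single lines of OsPRR1 moved further, from −1.57 in line J2_417 to 1.02 in line J2_248.

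These sizes depend on the scaling. By total counts the median change of all genes was −0.12 on the log2 scale, against −0.01 with TMM, and the changes became 0.51 for OsPRR95, 0.25 for OsPRR59, 0.18 for OsPRR73 and 0.09 for OsPRR37, all still called higher, while that of OsPRR1 was −0.07 and not called. Of all called genes, 28.6% were higher in 2023 by total counts, against 48.1% with TMM. Within the 30 lines with the deepest 2022 libraries the changes were 0.56, 0.38, 0.21, 0.14 and 0.08 for OsPRR95, OsPRR59, OsPRR73, OsPRR37 and OsPRR1, and within the other 70 lines they were 0.65, 0.35, 0.33, 0.22 and 0.01, each with the same calls.

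OsLHY was also higher in 2023, by 0.99 on the log2 scale (SE 0.0710) and in 98 of 100 lines, and the level of OsLHY moved with the year difference of the PRR genes. With OsLHY as a covariate in the edgeR fit, the year difference was larger for OsPRR59, at 0.54, and smaller for OsPRR73, at 0.13. For OsPRR95 it was 0.58 and for OsPRR37 it was 0.15, and these 4 calls stayed. OsPRR1 passed in that fit at 0.37 (edgeR adjusted p = 0.0185), which took its high and low sets together and not apart. The levels of OsLHY overlapped between the years in 48 lines of 2023 and 38 lines of 2022. The part of OsLHY in the year difference was not tested beyond it.

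Other clock genes went both ways. Of 8 further genes, OsLHY among them, OsPCL1 was too low to be tested, 5 were called higher in 2023, 1 was called lower and 1 was not called, with a median log2 change of 0.29 over the 7 tested. Over all genes tested, 34.3% were called higher and 36.9% lower. The F-box genes OsZTL1, OsZTL2 and OsFKF1, whose Arabidopsis counterparts target clock and flowering proteins for breakdown, were higher by 0.29, 0.30 and 0.32. OsFKF1 was the least even of them, with an SE of 0.129 and 64 lines higher, against 96 for OsZTL1 and 95 for OsZTL2. It averaged only 5.44 CPM in 2023 and 4.43 CPM in 2022. OsGI (Os01g0182600), the rice GIGANTEA gene, was higher by 0.09, less than any called PRR gene. OsELF3-2 (Os01g0566100), a relative of the Arabidopsis evening complex gene ELF3, was lower by a log2 change of −0.43 and it averaged only 2.88 CPM in 2023 and 3.899 CPM in 2022. OsELF3-1 (Os06g0142600) at −0.04 did not pass (edgeR adjusted p = 0.0689).

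The next question was how the PRR genes followed OsLHY over the lines of a year. OsPRR59 was lower where OsLHY was higher in both years, OsPRR73 was higher where OsLHY was higher in both years, and OsPRR95 followed OsLHY upward in 2022 and not detectably in 2023. Of the 4 genes without separate sets, 2 were called in 2023 and 3 in 2022, against 22.7% of 18403 genes called in 2023 and 53% in 2022. The p-values were BH adjusted over those genes, permutation p-values are two-sided with 100000 permutations (1e-05 being the lowest they can give), and 12 relations of PRR genes with OsLHY were computed.

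OsPRR73, the early member, had r = 0.319 with OsLHY in 2023 (rho = 0.253, permutation p = 0.00106 and 0.0110, adjusted p = 0.00958) and r = 0.586 in 2022 (rho = 0.600, permutation p = 1e-05 for both, adjusted p = 1.44e-09). A doubling of OsLHY went with 11.2% more OsPRR73 in 2023 and 10.6% more in 2022, a difference in slope of 0.00737 (SE 0.0517, adjusted p = 0.945 by limma with BH adjustment). Without the 2 lines farthest from the median of OsLHY, r was 0.294 in 2023 and 0.624 in 2022. Within the 30 lines deepest in 2022 its r was 0.417 in 2023 and 0.439 in 2022, and within the other 70 lines it was 0.271 and 0.509, of which only the last passed.

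OsPRR59, of the middle of the sequence, ran the other way, with r = −0.355 in 2023 (rho = −0.405, permutation p = 0.00035 and 4e-05, adjusted p = 0.00316) and r = −0.358 in 2022 (rho = −0.339, permutation p = 0.00024 and 0.00058, adjusted p = 0.000783). A doubling of OsLHY went with −18.0% of OsPRR59 in 2023 and −9.06% in 2022. With the 2 farthest lines left out, r was −0.339 in 2023 and −0.353 in 2022. Within the 30 lines deepest in 2022 its r was −0.486 in 2023 and −0.196 in 2022, neither called, and within the other 70 lines it was −0.305, not called, and −0.367, called. By total counts the 2023 relation fell short, at r = −0.247 (adjusted p = 0.0558).

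OsPRR95 gave opposite signs in the 2 years. Its r with OsLHY was −0.210 in 2023 (rho = −0.249, permutation p = 0.0377 and 0.0140, adjusted p = 0.115), which did not pass, and 0.277 in 2022 (rho = 0.319, permutation p = 0.00553 and 0.00145, adjusted p = 0.0120). With the 2 farthest lines left out, r was −0.169 in 2023 and 0.299 in 2022. Neither depth set gave a call, with r = −0.263 in 2023 and 0.383 in 2022 in the 30 lines and −0.192 and 0.105 in the other 70. The difference between the years was tested directly in limma as the slope on OsLHY, on log2 scales, 2023 minus 2022. For OsPRR95 it was −0.201 (SE 0.0652, adjusted p = 0.0204 by limma with BH adjustment), from a slope of −0.132 in 2023 and 0.0695 in 2022. That was the single call among 4 genes tested, beside 15.7% of all genes. By total counts it was −0.177 (adjusted p = 0.0667 by limma) and no longer called.

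OsPRR37, the other early member, was not called in either year, with r = 0.213 in 2023 (rho = 0.110, permutation p = 0.0321 and 0.272, adjusted p = 0.107) and r = 0.198 in 2022 (rho = 0.216, permutation p = 0.0485 and 0.0313, adjusted p = 0.0837). With the 2 farthest lines left out, its r was 0.199 in 2023 and 0.267 in 2022. In the 30 lines r was 0.239 in 2023 and 0.382 in 2022, and in the other 70 it was 0.201 and 0.135.

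OsPRR1, the evening member, had a negative r with OsLHY within both of its sets in both years. Among its high lines r was −0.343 in 2023 (n = 75, rho = −0.299, permutation p = 0.00251 and 0.00920, adjusted p = 0.0201) and −0.214 in 2022 (n = 73, rho = −0.218, permutation p = 0.0683 and 0.0640, adjusted p = 0.121). Among its low lines r was −0.638 in 2023 (n = 25, rho = −0.632, permutation p = 0.00028 and 0.00092, adjusted p = 0.0478) and −0.591 in 2022 (n = 27, rho = −0.545, permutation p = 0.00124 and 0.00357, adjusted p = 0.00913). Of these 4 relations 3 were called, and by total counts both calls of 2023 were lost, at r = −0.231 (adjusted p = 0.137) in the high lines and −0.415 (adjusted p = 0.621) in the low lines. Called genes made up 19.3% in the high lines and 1.31% in the low lines of 2023, and 48.4% and 23.9% in those of 2022. With the 2 farthest lines left out, the low lines had r = −0.564 in 2023 and −0.475 in 2022, and the high lines −0.250 and −0.247. Without lines J2_378 and J2_204 the call of the low lines in 2023 was lost at r = −0.627 (adjusted p = 0.0695), and no depth set gave a call for OsPRR1.

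**Figure D3:**
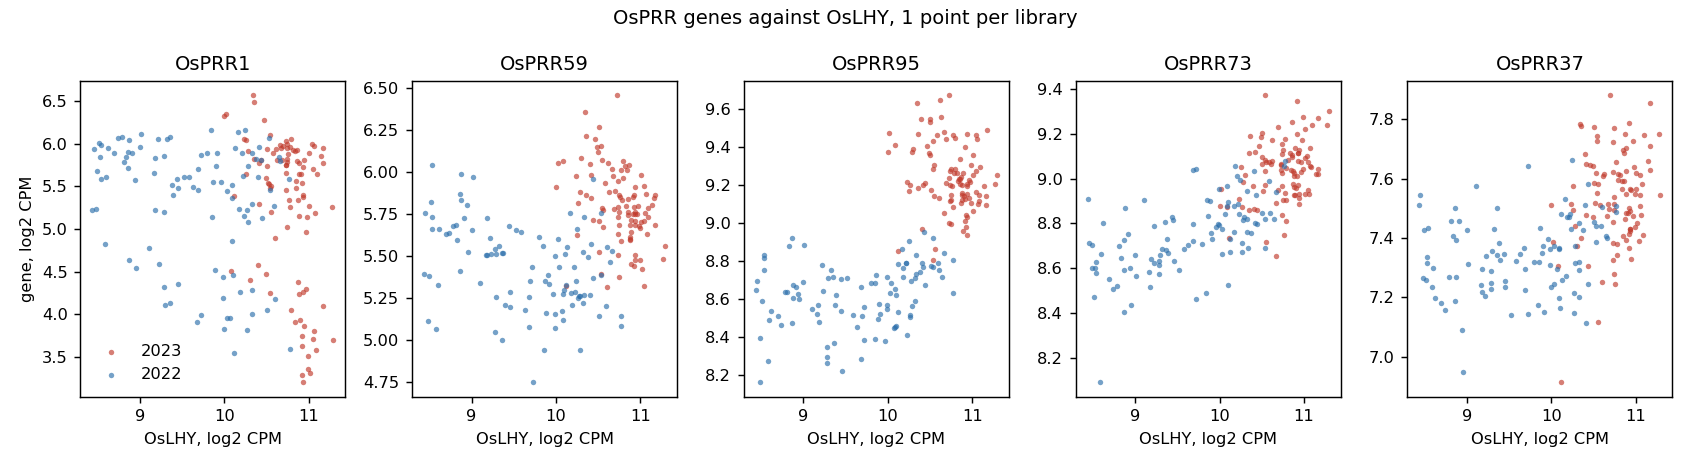
Each panel sets the log2 CPM of 1 PRR gene (vertical) against the log2 CPM of OsLHY (horizontal), with each library a point, 2023 in red and 2022 in blue. OsPRR73 climbs with OsLHY in both years (r = 0.319 in 2023 and 0.586 in 2022), OsPRR59 declines within each year (r = −0.355 and −0.358), and OsPRR1 shows its high and low sets as separate bands.

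The further clock genes were read against OsLHY in the same way. Of the 6 tested, 3 were called as rising and 1 as falling with OsLHY in 2023, and 3 and 3 in 2022. Over all 18403 genes, 22.7% were called with OsLHY in 2023 and 53% in 2022, in either direction. OsZTL1 (r = 0.560 in 2023 and 0.787 in 2022) and OsZTL2 (r = 0.583 and 0.627) rose with OsLHY, the direction of OsPRR73. OsFKF1 fell with it (r = −0.626 in 2023 and −0.822 in 2022), the direction of OsPRR59. OsGI, another gene of the later day, had r = −0.172 in 2023, which was not called, and −0.600 in 2022. OsELF3-1 rose with OsLHY (r = 0.694 in 2023 and 0.462 in 2022). OsELF3-2 had r = −0.171 in 2023, which was not called, and −0.493 in 2022. In 2022 these clock genes also followed the order of the columns, as given next.

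The order of the columns in the tables moved with OsLHY, and it is given beside the relations above for that reason. In the 2022 table OsLHY rose along the columns (r = 0.964 over 100 libraries, rho = 0.968, permutation p = 1e-05), with medians of 427, 640, 1074 and 1330 CPM in successive blocks of 25 columns. What the order of the columns stands for is not given in the sources used here. In 2022, 3 of the 4 PRR genes without sets were called along the columns, against 52.9% of 18404 genes. OsPRR59 had r = −0.353 (rho = −0.360, permutation p = 0.00032 and 0.00025, adjusted p = 0.000944), OsPRR95 had r = 0.252 (rho = 0.259, permutation p = 0.0115 and 0.0102, adjusted p = 0.0238) and OsPRR73 had r = 0.480 (rho = 0.497, permutation p = 1e-05 for both, adjusted p = 2.24e-06). OsPRR37, at r = 0.0956 (rho = 0.0969, permutation p = 0.343 and 0.335, adjusted p = 0.441), was not called. These calls of 2022 did not all hold within parts of the table or of the lines. OsPRR73 had r = 0.0928 over columns 1 to 50 and 0.0886 over columns 51 to 100, neither called, and OsPRR59 had −0.386 and 0.187, neither called. OsPRR95 had −0.211, not called, and 0.448 (adjusted p = 0.0118). Among the 30 lines deepest in 2022 OsPRR73 had 0.179, OsPRR59 −0.162 and OsPRR95 0.230, none called, and in the other 70 lines they had 0.365 and −0.380, both called, and 0.0645, not called. The further clock genes read against OsLHY were also called along the columns of 2022. Their r was −0.817 for OsFKF1, 0.797 for OsZTL1, −0.652 for OsGI, 0.574 for OsZTL2, −0.456 for OsELF3-2 and 0.425 for OsELF3-1. Their relations to OsLHY were not examined with a column trend removed.

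OsPRR1 was read along the columns within its sets. Its low lines of 2022 had r = −0.605 (n = 27, rho = −0.585, permutation p = 0.00083 and 0.00156, adjusted p = 0.00774), beside 21.7% of genes called in those lines, and its high lines had −0.197 (n = 73, rho = −0.211, permutation p = 0.0945 and 0.0734, adjusted p = 0.159), beside 48.3%. In 2023 neither set was called, at r = −0.471 in the low lines (n = 25, rho = −0.403, permutation p = 0.0187 and 0.0471, adjusted p = 0.408, beside 0.0598% of genes) and −0.0557 in the high lines (n = 75, rho = −0.0564, permutation p = 0.634 and 0.631, adjusted p = 0.855, beside 4.85%). With the 2 lines at the farthest columns left out, the low lines of 2022 had r = −0.513. Their call was lost in both depth sets, at −0.490 in the 30 lines and −0.591 in the other 70. It was also lost within both stretches of columns, at −0.818 over columns 1 to 50 and −0.336 over columns 51 to 100. Each of these values rests on only part of the 27 low lines.

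Along the columns of 2023, 0 of the 4 genes were called, against 9.01% of genes, and 0 had a permutation p under 0.05 for r. Over columns 1 to 50 alone, OsPRR59 had r = 0.450 (adjusted p = 0.0217) and was called, against −0.129 over columns 51 to 100. OsLHY itself had r = 0.0281 over all columns, but it ran downward over columns 1 to 50 (r = −0.767, adjusted p = 2.46e-07) and its block medians were 1881, 1413, 1957 and 1760 CPM. Where OsLHY was lowest, in columns 26 to 50, all 4 genes had their highest block medians. These were 61.1 CPM for OsPRR59, 647 CPM for OsPRR95, 539 CPM for OsPRR73 and 190.5 CPM for OsPRR37. The next highest were 534.5 CPM for OsPRR73 and 188.7 CPM for OsPRR37, so these 2 genes differed little between blocks. The same line stood at very different places in the 2 tables (r = −0.788 between its positions).

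With a quadratic trend along the columns removed, the 2022 relations changed unequally. OsPRR73 kept its relation to OsLHY, at r = 0.572 (adjusted p = 1.92e-06), and OsPRR37 gained a call at r = 0.494 (adjusted p = 6.54e-05). OsPRR59 dropped to r = −0.00327 (adjusted p = 0.989), and OsPRR95 stood at 0.241 (adjusted p = 0.108). The low lines of OsPRR1 dropped to −0.0639 (adjusted p = 0.910), and in 2023 they lost their call at −0.578 (adjusted p = 0.226). Genes called over the whole table went to 1650, against 9753 without the removal. A straight line along the columns accounted for 93.0% of the variance of OsLHY in 2022. The share taken by the quadratic trend was not computed. In 2023 the same removal left OsPRR59 at −0.298 (adjusted p = 0.0186) and OsPRR73 at 0.393 (adjusted p = 0.00102), and OsPRR37 passed at 0.285 (adjusted p = 0.0254). With column position added to the limma model, the slope difference of OsPRR95 was −0.328 (adjusted p = 0.207 by limma) and was no longer called.

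**Figure D4:**
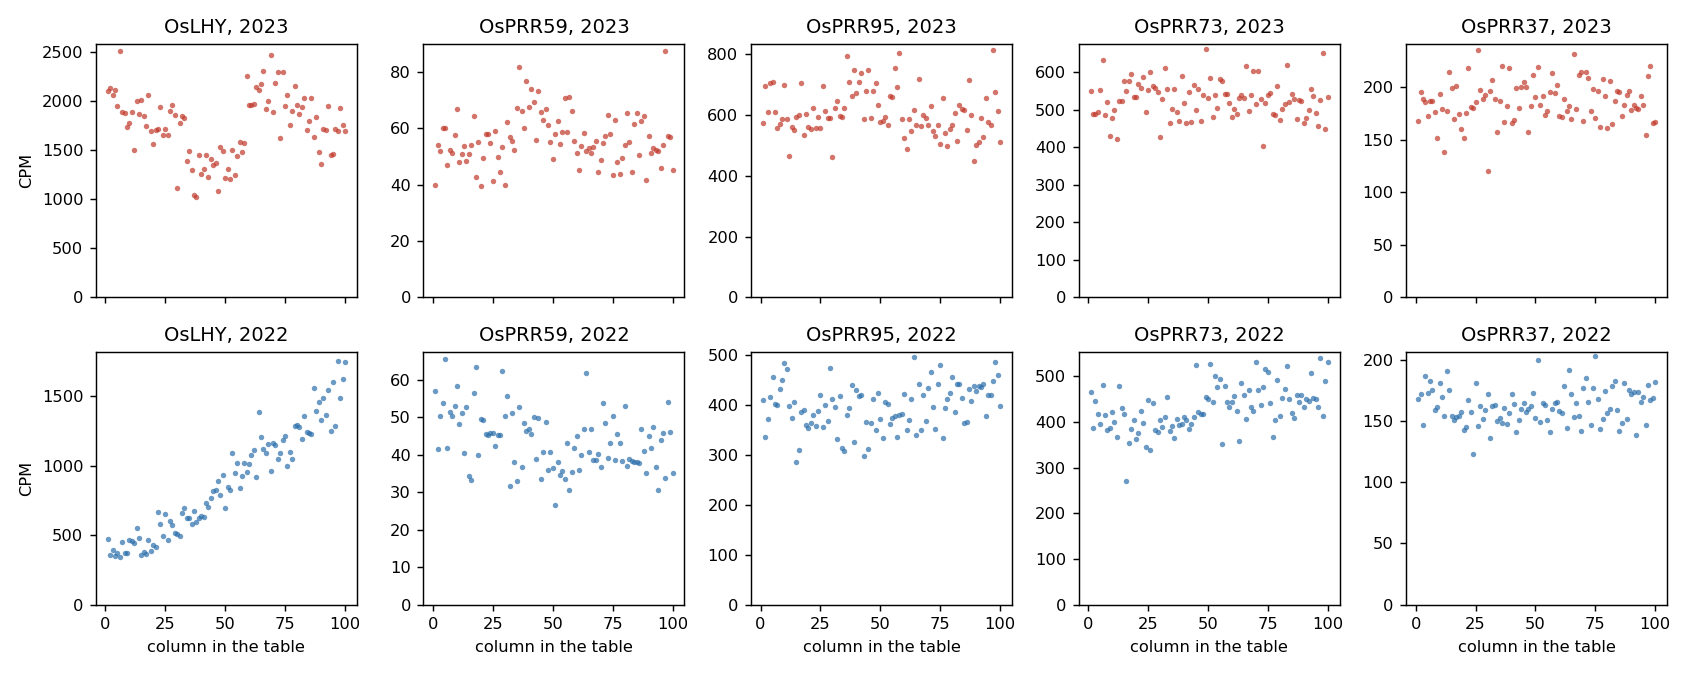
CPM (vertical, from 0) is plotted against the column of the library in its year's table (horizontal) for OsLHY, OsPRR59, OsPRR95, OsPRR73 and OsPRR37, with 2023 in the upper row (red) and 2022 in the lower row (blue). OsLHY climbs along the columns of 2022 (r = 0.964) and dips in columns 26 to 50 of 2023. In those columns of 2023 OsPRR59, OsPRR95, OsPRR73 and OsPRR37 all have their highest block medians.

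Relations among the PRR genes were examined in 28 comparisons over pairs, years and OsPRR1 sets. Over all 100 lines the strongest in each year joined genes of the same step of the daily sequence. The middle members OsPRR59 and OsPRR95 had r = 0.703 in 2023 (rho = 0.674, adjusted p = 2.30e-12) and 0.532 in 2022 (rho = 0.482, adjusted p = 1.39e-06), with permutation p = 1e-05 in each case. The early members OsPRR73 and OsPRR37 had r = 0.591 in 2023 (rho = 0.514, adjusted p = 6.50e-09) and 0.606 in 2022 (rho = 0.607, adjusted p = 1.48e-09), again with permutation p = 1e-05. Genes called with OsPRR59 made up 10.6% in 2023 and 18.6% in 2022, and with OsPRR73 32.3% and 39.1%, the adjustment running over all partners of the first gene of a pair.

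Both relations held after a correction for OsLHY and after removal of the column trend. After both genes were corrected for OsLHY, OsPRR59 and OsPRR95 had r = 0.687 in 2023 and 0.704 in 2022, and OsPRR73 and OsPRR37 had 0.565 and 0.617. With the column trend removed they had 0.711 and 0.663, and 0.592 and 0.643. With the 2 farthest lines left out, r was 0.660 and 0.507 for the first pair and 0.576 and 0.620 for the second. In the 30 lines with the deepest 2022 libraries OsPRR59 and OsPRR95 had 0.748 in 2023 and 0.420 in 2022, of which the 2022 value was not called, and in the other 70 lines 0.705 and 0.641. OsPRR73 and OsPRR37 had 0.600 and 0.703 in the 30 lines and 0.602 and 0.590 in the other 70, all called.

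Across steps the relations over all lines were weaker, and most were called in a single year. OsPRR95 and OsPRR37 were called in both years, at r = 0.438 in 2023 (rho = 0.395, permutation p = 2e-05 and 6e-05, adjusted p = 0.000184) and 0.343 in 2022 (rho = 0.399, permutation p = 0.00048 and 0.00011, adjusted p = 0.00503), beside 20.1% and 21.9% of genes called with OsPRR95. OsPRR59 and OsPRR73, which went opposite ways with OsLHY, had r = −0.0417 in 2023 (rho = −0.0384, permutation p = 0.677 and 0.702, adjusted p = 0.854) and −0.349 in 2022 (rho = −0.405, permutation p = 0.00038 and 7e-05, adjusted p = 0.00471). The 2022 call was lost after correction for OsLHY (−0.183, adjusted p = 0.193), by total counts (−0.185, adjusted p = 0.150) and with the column trend removed (−0.243, adjusted p = 0.0659). OsPRR95 and OsPRR73 passed in 2023 at r = 0.283 (rho = 0.255, permutation p = 0.00444 and 0.0106, adjusted p = 0.0269) and not in 2022 at 0.239 (rho = 0.213, permutation p = 0.0159 and 0.0324, adjusted p = 0.0678), where it passed by total counts at 0.265 (adjusted p = 0.0321). OsPRR59 and OsPRR37 passed in 2023 at r = 0.321 (rho = 0.275, permutation p = 0.00113 and 0.00573, adjusted p = 0.0172), while in 2022 r was −0.0401 (rho = −0.0194, permutation p = 0.692 and 0.848, adjusted p = 0.829). In the 30 lines deepest in 2022 none of these relations was called, with OsPRR95 and OsPRR37 at 0.319 in 2023 and 0.544 in 2022, OsPRR59 and OsPRR73 at −0.340 in 2022, OsPRR95 and OsPRR73 at 0.0960 in 2023 and OsPRR59 and OsPRR37 at 0.0963 in 2023. In the other 70 lines the values were 0.501 and 0.260, −0.315, 0.352 and 0.403 in the same order, and the 3 positive values of 2023 were called. Whether these relations differ between the years was not tested.

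OsPRR1 went with the middle members among its high lines. With OsPRR59 it had r = 0.553 in 2023 (n = 75, rho = 0.568, adjusted p = 0.000456) and 0.674 in 2022 (n = 73, rho = 0.709, adjusted p = 1.21e-06), both with permutation p = 1e-05. With OsPRR95 it had r = 0.473 in 2023 (rho = 0.465, permutation p = 3e-05 for both, adjusted p = 0.00302) and 0.423 in 2022 (rho = 0.401, permutation p = 0.00022 and 5e-04, adjusted p = 0.0194). Among the high lines within the 30 lines deepest in 2022, which are fewer than 30, neither was called. There r was 0.554 in 2023 and 0.785 in 2022 for OsPRR59 and 0.405 and 0.452 for OsPRR95. Among the high lines within the other 70 both were called, at 0.553 and 0.643 for OsPRR59 and 0.508 and 0.514 for OsPRR95. Genes called with OsPRR1 in its high lines made up 4.25% in 2023 and 2.45% in 2022. With OsPRR73 and OsPRR37 no call was made in either set or year, with r from −0.360 to 0.202. By total counts OsPRR37 was called in the low lines of 2023, at r = 0.657 (adjusted p = 0.00473) where TMM gave 0.202 (adjusted p = 0.572). Among the low lines, OsPRR95 was called in 2023 (r = 0.647, n = 25, rho = 0.624, permutation p = 0.00046 and 0.00103, adjusted p = 0.0149, beside 9.9% of genes). In 2022 the same r was −0.0447 (n = 27, rho = 0.0446, permutation p = 0.825 and 0.824, adjusted p = 0.923, beside 3.68% of genes). The call of 2023 was lost with the column trend removed (r = 0.542) and after correction for OsLHY (r = 0.375). It was also lost among the low lines within the 30 lines (r = 0.522), which are only part of the 25. With OsPRR59 the low lines had r = 0.517 in 2023 (rho = 0.458, permutation p = 0.00859 and 0.0219, adjusted p = 0.0667) and 0.261 in 2022 (rho = 0.223, permutation p = 0.187 and 0.262, adjusted p = 0.441), neither called. By total counts the 2023 value was 0.687 and called (adjusted p = 0.00284).

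**Figure D5:**
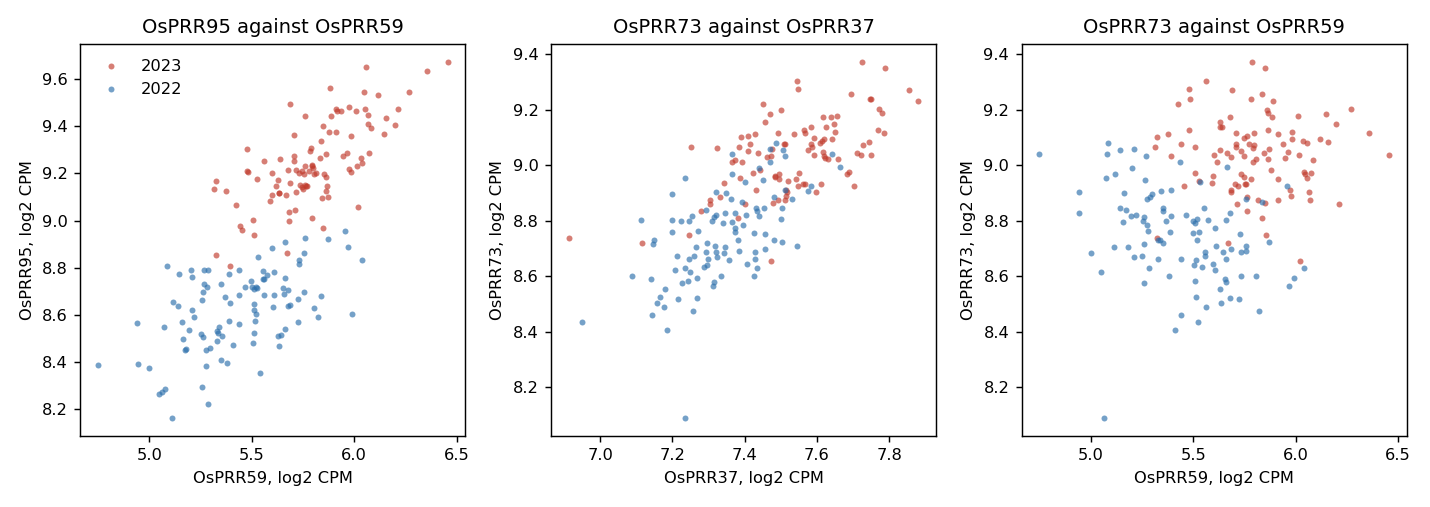
The panels plot log2 CPM of OsPRR95 against OsPRR59, of OsPRR73 against OsPRR37 and of OsPRR73 against OsPRR59, with each library a point, 2023 in red and 2022 in blue. The first and second show rising clouds in both years (r = 0.703 and 0.532, then 0.591 and 0.606, for 2023 and 2022), and the third shows none in 2023 (r = −0.0417) and a declining cloud in 2022 (r = −0.349).

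The last comparison asked whether a line that was high in 2023 was also high in 2022. OsPRR59 (r = 0.352, rho = 0.291, permutation p = 0.00026 and 0.00333, adjusted p = 0.00251) and OsPRR95 (r = 0.352, rho = 0.324, permutation p = 0.00037 and 0.00115, adjusted p = 0.00254) repeated over 100 lines. OsPRR73 repeated less firmly (r = 0.279, rho = 0.289, permutation p = 0.00529 and 0.00376, adjusted p = 0.0261), and by total counts its r was 0.0406 and not called. OsPRR37 did not pass (r = 0.238, rho = 0.203, permutation p = 0.0172 and 0.0433, adjusted p = 0.0703). With the column trend removed its r was 0.283 and passed (adjusted p = 0.0231), and by total counts it was 0.0369 (adjusted p = 0.838). Of these 4 genes 3 were called, against 21.9% of 18404 genes, whose median r was 0.113.

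Inside its sets OsPRR1 repeated among the 73 lines high in both years (r = 0.389, rho = 0.345, permutation p = 0.00076 and 0.00331, adjusted p = 0.00581). Among the 25 lines low in both years r was −0.310 (rho = −0.257, permutation p = 0.131 and 0.214, adjusted p = 0.516). OsLHY had r = 0.0426 between the years (rho = 0.0926, permutation p = 0.676 and 0.359, adjusted p = 0.828). Without the 2 lines farthest from the median, r was 0.368 for OsPRR59, 0.281 for OsPRR95, 0.277 for OsPRR73, 0.160 for OsPRR37 and 0.377 for the high lines of OsPRR1. Within the 30 lines with the deepest 2022 libraries no member passed, with r of 0.257, 0.269, 0.158, 0.168 and 0.529, and within the other 70 lines r was 0.366, 0.377, 0.332, 0.302 and 0.304, in the same order, of which the first 3 passed.

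Some lines stood at the same end for several PRR genes. Line J2_334 was among the 10 highest lines of both years for OsPRR1, OsPRR59 and OsPRR95. Line J2_231 was so for OsPRR59, OsPRR95 and OsPRR37, and lines J2_310 and J2_370 for OsPRR73 and OsPRR37. Line J2_416 was among the 10 lowest of both years for OsPRR59 and OsPRR95, and line J2_415 for OsPRR1 and OsPRR59. For OsPRR1, OsPRR59, OsPRR95, OsPRR73 and OsPRR37 the years shared 1, 4, 2, 4 and 3 of the 10 highest lines. They shared 3, 3, 2, 1 and 2 of the 10 lowest. Whether these numbers exceed those of unrelated rankings was not tested, and several of these genes were correlated with each other over the lines.

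The genes most like the other members over the lines, by the same ranking as for OsPRR1, lay on several chromosomes. For OsPRR59 they were Os09g0570900 (r = 0.721 in 2023 and 0.744 in 2022), OsFKF1 (Os11g0547000, r = 0.719 and 0.651) and Os04g0430950 (r = 0.639 and 0.628), with Os10g0330400 most opposed (r = −0.605 and −0.652). The Arabidopsis counterpart of OsFKF1 is a blue-light receptor with an F-box. For OsPRR95 they were Os01g0886900 (r = 0.657 in 2023 and 0.635 in 2022), Os02g0678200 (r = 0.629 and 0.616) and Os05g0582350 (r = 0.623 and 0.601), with Os10g0417800 most opposed (r = −0.574 and −0.660). These likenesses are descriptions over 100 lines a year and carry no p.

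For OsPRR73 the most alike were Os09g0532700 (r = 0.816 in 2023 and 0.742 in 2022), Os02g0234500 (r = 0.828 and 0.736) and Os03g0198300 (r = 0.728 and 0.799), with Os11g0247300 most opposed (r = −0.636 and −0.659). For OsPRR37 the gene most alike was OsPRR73 itself, before Os02g0822500 (r = 0.721 in 2023 and 0.554 in 2022) and Os06g0474900 (r = 0.551 and 0.579), with Os05g0136900 most opposed (r = −0.643 and −0.562). By the smaller r of the 2 years OsPRR73 is thus nearest to OsPRR37 among 18403 genes. In 2023 alone Os02g0822500 had a larger r with OsPRR37, at 0.721 against 0.591 for OsPRR73. By the same ranking at least 3 genes are nearer to OsPRR73 than OsPRR37 is.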

How the data were processed

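Leaf poly(A) RNA of 100 lines was sequenced in 2 years. The deposited tables, 1 per year, hold raw counts per gene, and the labels' own name for them says that exon reads mapped uniquely were counted. Genome build IRGSP-1.0 is named in the submitters' processing notes, while aligner, counting tool and strand setting were not given in the sources used here. Each of the 200 columns was matched to a labelled library by name, and 0 libraries had the same values as another. The 2023 columns carry the library name where the labels announce the line name, and they were matched by that library name.

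In R 4.3.3, edgeR 4.0.16 gave TMM factors, CPM, log2 CPM with a prior count of 2, and the quasi-likelihood test of year on all 200 libraries with filterByExpr. The p-values measure the spread between single plots of lines, which may be technical. Correlations used genes averaging 1 CPM or more, t p-values BH adjusted over all of them, and 100000 permutations; limma 3.58.1 tested slopes. Calls were made at an adjusted p under 0.05. Per the labels, equal line numbers mark the same line, so the libraries are paired by design (median r between the years over all genes 0.113), and the line as a replicate block was an alternative, as were DESeq2 1.42.0, total counts, no low-count filter, a prior count of 0.5, column order, depth sets and gap limits of 5% and 10%. The count tests were tested on simulated data. Named genes were the members, OsLHY, a clock list, and per member the 3 genes most like it and the 1 most opposed by the weaker year's r. The members, lists and the 8% gap limit were chosen with earlier results of these data known. Promoter and protein sequences were not analysed here, nor were levels compared between genes, since gene lengths were not used.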

Additional observations from a re-analysis of the deposited data

Results flagged for a closer look

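The slope of OsPRR95 on OsLHY differed between the years by −0.201 on log2 scales (2023 minus 2022, SE 0.0652, adjusted p = 0.0204 by limma with BH adjustment over all genes), which put it forward as a difference between groups under the same relation. A doubling of OsLHY went with −8.73% of OsPRR95 in 2023 and with 4.94% more in 2022. Neither scaling by total counts nor the addition of column position left it past the threshold. The difference for OsPRR59 was −0.150 (adjusted p = 0.254), for OsPRR73 0.00737 (adjusted p = 0.945) and for OsPRR37 0.0816 (adjusted p = 0.340), all by limma with BH adjustment.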

How the results depend on the processing

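The year calls of OsPRR59, OsPRR95, OsPRR73 and OsPRR37 held under every alternative run, DESeq2 included, which called 13364 genes against 13298 by edgeR; without the low-count filter 17061 genes were called. With line as a replicate block in edgeR, 13804 genes were called, and the year difference of OsPRR1 was −0.0121 (adjusted p = 0.811 by edgeR); no call of a PRR gene changed. That of OsPRR1 was also negative by total counts (−0.0735) and over the lines of columns 1 to 50 of 2022 (−0.0645), and it passed with OsLHY as a covariate (0.37). The cause of the changes below was not tested. At the same r a smaller set of lines gives a larger p-value, but r itself also moved between the sets. In the depth sets, depth and the smaller number of lines cannot be told apart, and single libraries per line give no error within a line.

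The two-mode count was 706 genes at a gap limit of 5%, and 0 PRR genes were called at 10% (OsPRR1 at 8.93%) or by total counts (6.04%). By total counts the relation to OsLHY in 2023 was no longer called for OsPRR59 (−0.247) and for the high (−0.231) and low (−0.415) lines of OsPRR1. Also by total counts, the slope difference was −0.177 for OsPRR95 and −0.0431 for OsPRR73, and r was 0.130 for OsPRR1 and OsPRR73 (low lines, 2023), 0.0163 for OsPRR59 and OsPRR73 (2023), 0.0325 for OsPRR1 and OsPRR95 (low lines, 2022) and 0.160 for OsPRR59 and OsPRR37 (2022). Calls were gained by total counts for OsPRR1 with OsPRR37 (0.657) and OsPRR59 (0.687) in the low lines of 2023 and for OsPRR95 and OsPRR73 in 2022 (0.265), and lost for OsPRR59 and OsPRR73 in 2022 (−0.185) and for the repeatability of OsPRR73 (0.0406).

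With the column trend removed, OsPRR37 passed with OsLHY in 2023 (0.285) and 2022 (0.494). Calls were lost for the low lines of OsPRR1 in 2023 (−0.578) and 2022 (−0.0639), and for OsPRR59 (−0.00327) and OsPRR95 (0.241) in 2022, when 1650 genes were called. OsPRR1 and OsPRR95 had r = 0.141 (low lines, 2022) and lost their call in the low lines of 2023 (0.542), OsPRR59 and OsPRR73 lost theirs of 2022 (−0.243), and the repeatability of OsPRR37 passed (0.283). With column position added, the slope difference was −0.328 for OsPRR95, −0.290 for OsPRR73 and −0.192 for OsPRR37. After correction for OsLHY, r was 0.0807 for OsPRR59 and OsPRR73 (2023), 0.364 for OsPRR1 and OsPRR95 (low lines, 2022) and 0.0338 for OsPRR59 and OsPRR37 (2022).

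In the 30 lines with the deepest 2022 libraries, calls with OsLHY in 2023 were lost for OsPRR59 (−0.486), OsPRR73 (0.417) and the high (−0.590) and low (−0.624) lines of OsPRR1, with 815 genes called. In 2022 they were lost for OsPRR59 (−0.196), OsPRR95 (0.383), OsPRR73 (0.439) and the low lines of OsPRR1 (−0.490), with 1297 genes called. Repeatability was called for 2579 genes and was 0.290 for the low lines of OsPRR1. Signs turned for OsPRR1 and OsPRR37 (low lines, 2023, −0.382), OsPRR1 and OsPRR95 (low lines, 2022, 0.163), OsPRR1 and OsPRR73 (high lines, 2022, 0.209) and OsPRR59 and OsPRR37 (2022, 0.0204). In the other 70 lines, calls with OsLHY in 2023 were lost for OsPRR59 (−0.305), OsPRR73 (0.271) and the high (−0.242) and low (−0.693) lines of OsPRR1. In 2022 they were lost for OsPRR95 (0.105) and the low lines of OsPRR1 (−0.536), with 6014 genes called. Signs turned for OsPRR59 and OsPRR73 (2023, 0.0648), OsPRR1 and OsPRR95 (low lines, 2022, 0.126) and OsPRR1 and OsPRR37 (high lines, 2022, −0.0264). Without lines J2_378 and J2_204, an alternative chosen after seeing the data, the low lines of OsPRR1 lost their 2023 call (−0.627) and OsPRR1 and OsPRR95 had r = 0.0756 (low lines, 2022).

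Against column position, r in the 30 lines for 2023 was 0.104 for OsPRR73, −0.528 for OsLHY, and 0.229 and 0.376 for the high and low lines of OsPRR1. In the other 70 lines it was −0.0667 for OsPRR59 in 2023 and −0.00284 for OsPRR37 in 2022. Over columns 1 to 50 of 2023 it was 0.307 for OsPRR95, 0.0897 for OsPRR73, −0.767 for OsLHY, and 0.306 and 0.467 for the high and low lines of OsPRR1, and of 2022 it was −0.211 for OsPRR95 and −0.281 for OsPRR37. Over columns 51 to 100 of 2023 it was −0.129 for OsPRR59, −0.169 for OsPRR37 and 0.00261 for the high lines of OsPRR1, and of 2022 it was 0.187 for OsPRR59 and 0.0480 for the high lines of OsPRR1. These values did not pass, except that of OsLHY over columns 1 to 50 of 2023. OsPRR59 gained a call over the same columns (0.450).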

Other observations

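Counts of OsPRR73 over those of OsPRR59 in a library spanned 6.00 to 13.95 around a median of 9.37 in 2023, and 6.03 to 19.7 around a median of 9.85 in 2022. Those of OsPRR95 over OsPRR59 spanned 8.22 to 14.4 around a median of 10.9 in 2023, and 6.14 to 13.2 around a median of 9.14 in 2022. Those of OsPRR73 over OsPRR37 spanned 2.27 to 3.54 around a median of 2.81 in 2023, and 1.81 to 3.29 around a median of 2.63 in 2022. These ratios were chosen after the levels had been seen, and they hold the unknown difference in gene length, so they compare libraries and not genes.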
